A study of Saccharomyces cerevisiae with 8 samples.

Results

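The transcripts described here are those of ZAP1, the zinc-responsive transcription activator of budding yeast, and of 5 genes of zinc uptake and of the low-zinc response that Zap1 is known to activate, ZRT1, ZRT2, ZPS1, FET4 and ZRG8. They were found by gene symbol in the probe annotation of the array, and each of the 6 was found once among the 6226 genes measured. AhPDF1.1b is a plant defensin of Arabidopsis halleri. All yeast were of the haploid MATa strain BY4741 (his3Δ1 leu2Δ0 met15Δ0 ura3Δ0), and all carried the empty vector pFL38H, which bears HIS3. The WT yeast did not express the defensin. The WTD yeast, called AhPDF1.1b yeast here, expressed it from pYX212, a URA3 plasmid with the yeast triose phosphate isomerase promoter. Whether the WT yeast held an empty pYX212 is not said in the labels, but URA3, deleted in the strain, gave a log2 signal of 15.40 to 15.64 on the WT arrays and 14.16 to 14.55 on those of AhPDF1.1b yeast. Colonies grew at 30°C on solid medium without added zinc (WT0 and WTD0) or with 20 mM ZnSO4 (WT20 and WTD20). Colonies were harvested at a common diameter, so the groups were matched by colony size. Total RNA of each of 2 biological replicates per group was labelled with Cy3 and hybridised alone to an Agilent yeast array, which makes 8 arrays on 2 slides.

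Zap1 senses zinc in the nucleus. When zinc is scarce it binds the promoters of its targets, its own gene among them, and raises their transcription, and when zinc is replete it is inactive. Its best known targets are the plasma membrane transporters that bring zinc into the cell, so their transcripts are widely read as a gauge of cellular zinc status. The groups compared here differ in an excess of added zinc, and no group was made deficient in zinc.

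The values are log2 signals as deposited, and a difference of 1 is a factor of 2 in signal. Replicates correlated at 0.996 to 0.998 over all probes and differed by a median of 0.07 to 0.10. In the deletion background of the strain, the probes of LEU2 and MET17 read 5.54 to 5.79 on all arrays, near the bottom of the array scale. The plasmid markers were bright on all arrays, HIS3 at 12.26 to 13.18 and URA3 at 14.16 to 15.64. URA3 was lower in AhPDF1.1b yeast on both media (a difference of -1.12, adjusted p = 0.00025 without zinc and 1.4e-05 with zinc). The WT0 and WTD0 replicates lay on both slides, but both WT20 arrays lay on slide 2 and both WTD20 arrays on slide 1. No slide holds zinc-treated arrays of both yeasts, so slide and defensin cannot be told apart under zinc from those arrays alone. No gene differed between slides at an adjusted p below 0.05 in limma (104 did at an unadjusted p below 0.05), a test that rests on the control arrays. An array signal averages over the cells of a colony, so a lower level per cell and fewer expressing cells cannot be told apart.

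ZRT1 (YGL255W) encodes the high-affinity zinc transporter of the plasma membrane. Its log2 signal was 11.33 and 11.32 in the WT0 replicates, 10.57 and 10.62 in WTD0, 7.60 and 7.62 in WT20, and 7.64 and 7.58 in WTD20. The order was WT0, then WTD0, then both zinc groups, whose arrays overlapped, and the largest difference between replicates was 0.06. Zinc lowered ZRT1 by 3.72 ± 0.06 (SE, n = 2 arrays per group) in WT yeast, a factor of 13.1 (adjusted p = 2.6e-11, limma with Benjamini-Hochberg adjustment over all genes, as for every adjusted p here). In AhPDF1.1b yeast it fell by 2.98 ± 0.06, a factor of 7.91 (adjusted p = 3.0e-10). Under zinc the difference between the yeasts was below 0.01, with a 95% interval of -0.14 to 0.14.

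ZRT2 (YLR130C) encodes the low-affinity zinc transporter. The arrays gave it a log2 signal of 9.89 and 9.93 in WT0, 9.78 and 9.87 in WTD0, 8.11 and 8.17 in WT20, and 8.60 and 8.53 in WTD20. The control groups lay close together, and WTD20 stood above WT20 with no overlap. ZRT2 fell with zinc by 1.77 ± 0.07 in WT yeast, a factor of 3.41 (adjusted p = 1.1e-08), and by 1.26 ± 0.07 in AhPDF1.1b yeast, a factor of 2.39 (adjusted p = 2.9e-07).

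ZPS1 (YOL154W) encodes a GPI-anchored cell surface protein that is strongly induced in zinc-limited cells. Its log2 signal was 11.03 and 10.96 in WT0, 9.71 and 9.81 in WTD0, 7.07 and 7.06 in WT20, and 7.39 and 7.43 in WTD20. All 4 groups were separate, and each step in their order passed the test, with differences of 1.23, 2.34 and 0.35, though the last, between the zinc groups, was 0.26 and did not pass with slide as a block (adjusted p = 0.071). ZPS1 fell with zinc by 3.93 ± 0.07 in WT yeast, a factor of 15.2 (adjusted p = 2.6e-11), and by 2.34 ± 0.07 in AhPDF1.1b yeast, a factor of 5.07 (adjusted p = 4.0e-09).

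ZAP1 (YJL056C) itself is activated by Zap1. Its log2 signal was 7.77 and 7.70 in WT0, 7.47 and 7.32 in WTD0, 6.70 and 6.82 in WT20, and 6.99 and 6.87 in WTD20. The 2 arrays of each group did not overlap with those of the next. Even so, the zinc groups did not differ by the test (0.17, adjusted p = 0.11), and WT0 and WTD0 differed close to the threshold (adjusted p = 0.038). The group means span only 0.97, against 3.72 for ZRT1 and 3.93 for ZPS1, and ZAP1 lies among the dimmest 25% of genes on the array. ZAP1 fell with zinc by 0.97 ± 0.08 in WT yeast, a factor of 1.96 (adjusted p = 2.8e-06), and by 0.46 ± 0.08 in AhPDF1.1b yeast, a factor of 1.38 (adjusted p = 0.00098).

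FET4 (YMR319C) encodes a low-affinity transporter of iron, zinc and copper, and Zap1 is only one of its regulators, beside the iron regulator Aft1 and the hypoxic repressor Rox1. Its log2 signal was 9.04 and 9.09 in WT0, 9.04 and 9.04 in WTD0, 9.98 and 10.09 in WT20, and 9.37 and 9.24 in WTD20. It moved in the opposite direction to the transporters ZRT1 and ZRT2, highest in WT20, intermediate in WTD20 and lowest on control medium. FET4 rose with zinc by 0.97 ± 0.07 in WT yeast, a factor of 1.96 (adjusted p = 1.3e-06). In AhPDF1.1b yeast it rose by 0.27 ± 0.07, a factor of 1.21 (adjusted p = 0.012), a call that was lost without WTD20 replicate 1 (0.20, adjusted p = 0.098).

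ZRG8 (YER033C) was named as a zinc-regulated gene, and its function is little known. Its log2 signal was 7.37 and 7.50 in WT0, 7.52 and 7.44 in WTD0, 8.17 and 8.38 in WT20, and 7.89 and 7.70 in WTD20. The control groups overlapped, WT20 was highest, and the replicates differed by up to 0.21, the most of the 6 genes. ZRG8 rose with zinc by 0.84 ± 0.09 in WT yeast, a factor of 1.79 (adjusted p = 2.3e-05), and by 0.32 ± 0.09 in AhPDF1.1b yeast, a factor of 1.25 (adjusted p = 0.018). The latter call was lost without WTD20 replicate 1 (0.22, adjusted p = 0.14) and without WTD0 replicate 2 (0.28, adjusted p = 0.092).

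**Figure D1:**
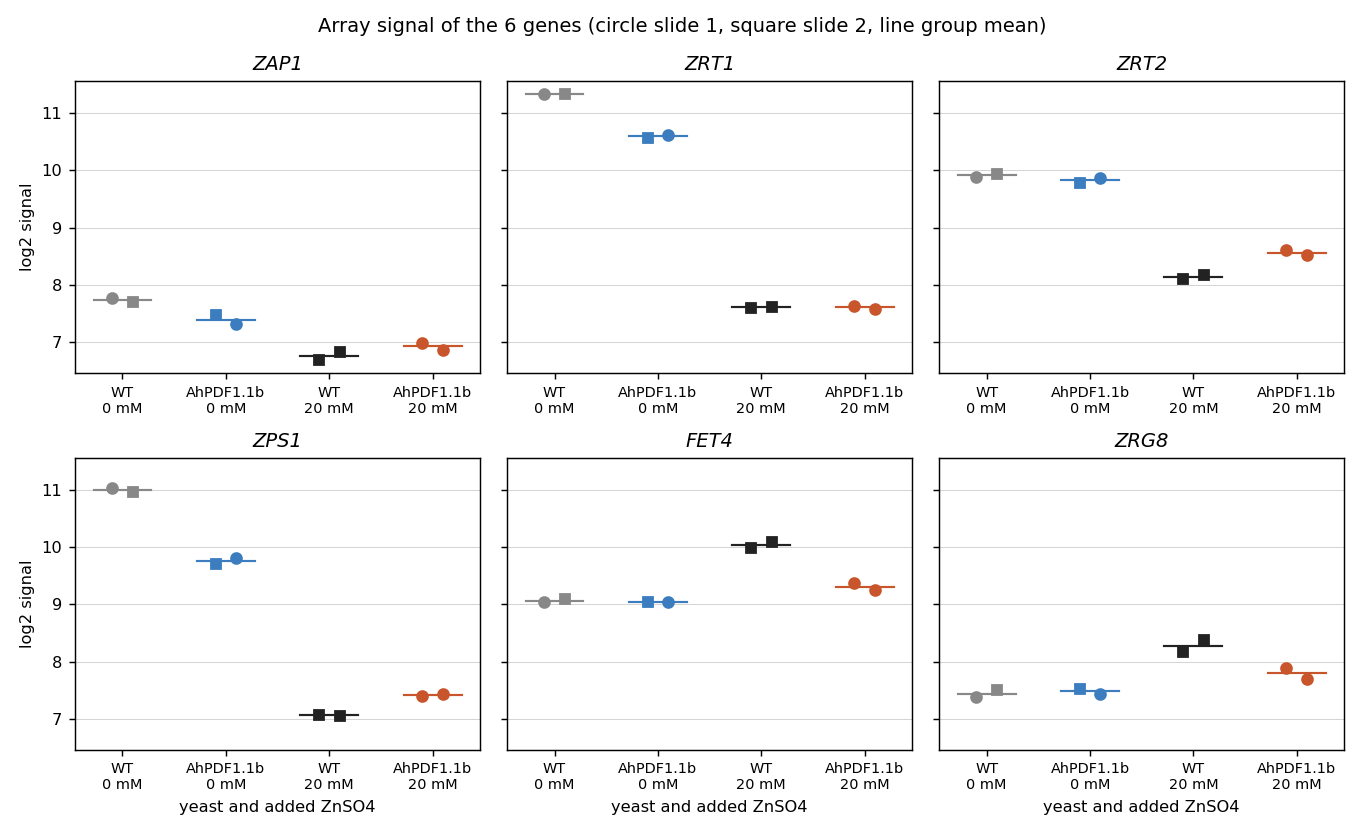
Log2 signal (vertical axis) of the 6 genes on each of the 8 arrays, by yeast and added ZnSO4 (horizontal axis), with circles for slide 1, squares for slide 2 and a line at each group mean. ZRT1, ZRT2, ZPS1 and ZAP1 were lower under 20 mM ZnSO4 in both yeasts, while FET4 and ZRG8 were highest in WT yeast under zinc.

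The effect of excess zinc was first examined in WT yeast, without the defensin. Of the 6 genes 4 fell and 2 rose, where 59.3% of all genes passed the test (31.5% down and 27.8% up). With so many genes called, a call alone sets none of the 6 apart, and the sizes of the changes differ more. The fall of ZPS1 was the 4th largest on the array and that of ZRT1 the 6th, among 18 genes that fell by 2 or more on the log2 scale. ZRT2 was 29th and ZAP1 205th in the same order, and FET4 and ZRG8 were 287th and 375th among increases. The median change of the 6 genes was -1.37, against -0.03 over all genes. Within slide 2 alone, which held a WT0 array beside both WT20 arrays, the changes were -3.89 for ZPS1, -3.71 for ZRT1, -1.79 for ZRT2, -0.94 for ZAP1, 0.95 for FET4 and 0.78 for ZRG8.

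In AhPDF1.1b yeast the same 4 genes fell with zinc and the same 2 rose, where 45.8% of all genes passed the test (24.0% down and 21.8% up). Their median change was -0.86. ZRT1 and ZPS1 were again near the extreme of the array, the 7th and the 9th largest falls, and 15 genes fell by 2 or more. ZRT2 was 42nd and ZAP1 529th. Within slide 1, which held a WTD0 array beside both WTD20 arrays, the changes were -3.01 for ZRT1, -2.39 for ZPS1, -1.31 for ZRT2, -0.39 for ZAP1, 0.27 for FET4 and 0.36 for ZRG8.

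AhPDF1.1b expression was next compared on control medium, where far fewer genes differed. Of the 6 genes 3 were lower in AhPDF1.1b yeast, none was higher and 3 did not pass, where 5.65% of all genes passed (2.65% down and 3.00% up). The 3 lower genes were ZPS1, ZRT1 and ZAP1. ZPS1 was lower by 1.23 ± 0.07, a factor of 2.35 (adjusted p = 2.2e-05), the 3rd largest decrease on an array where 9 genes fell and 1 gene rose by 1 or more. ZRT1 was lower by 0.73 ± 0.06, a factor of 1.66 (adjusted p = 0.00022), the 22nd largest decrease. Both slides held an array of each yeast, and the differences within slides 1 and 2 were -1.22 and -1.25 for ZPS1 and -0.71 and -0.75 for ZRT1.

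The lower level of ZAP1 in AhPDF1.1b yeast was close to the threshold, at -0.34 ± 0.08 (adjusted p = 0.038), and was -0.45 within slide 1 and -0.23 within slide 2. Its adjusted p ranged from 0.024 to 0.24 over the alternatives and was above 0.05 with slide or replicate as a block, with only the arrays compared, and without WT0 replicate 1 (-0.31), WT0 replicate 2 (-0.37) or WTD0 replicate 2 (-0.26). The transporter genes ZRT2 and FET4 and the gene ZRG8 showed no difference that passed the test. Their differences were -0.08 for ZRT2 (95% interval -0.24 to 0.07, with -0.01 and -0.16 within slides 1 and 2), -0.03 for FET4 (-0.19 to 0.14) and 0.04 for ZRG8 (-0.17 to 0.25).

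Under 20 mM ZnSO4 the comparison of both yeasts gave another picture. ZRT2 and ZPS1 were higher in AhPDF1.1b yeast, FET4 and ZRG8 were lower, and ZAP1 and ZRT1 did not pass, where 48.8% of all genes passed the test (26.8% up and 22.0% down). ZRT2 was higher by 0.42 ± 0.07, a factor of 1.34 (adjusted p = 0.00062), and ZPS1 by 0.35 ± 0.07, a factor of 1.28 (adjusted p = 0.0017). FET4 was lower by a factor of 1.65, at -0.72 ± 0.07 (adjusted p = 2.4e-05), and ZRG8 by a factor of 1.39, at -0.48 ± 0.09 (adjusted p = 0.0018). ZAP1 differed by 0.17 (95% interval -0.01 to 0.35, adjusted p = 0.11) and ZRT1 by less than 0.01 (-0.14 to 0.14, adjusted p = 0.996).

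Slide and yeast coincide under zinc, and slide as a block in the fit moved part of these calls. ZRT2 and FET4 kept their calls, with 0.40 for ZRT2 (adjusted p = 0.023) and -0.70 for FET4 (adjusted p = 0.0018). ZPS1 (0.26, adjusted p = 0.071) and ZRG8 (-0.38, adjusted p = 0.063) no longer passed. Since the slide term is estimated from the control arrays, the fit assumes that the slides differed by the same amount for the zinc arrays.

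The question that joins these comparisons is whether zinc changed the genes by different amounts in the yeasts, and it was tested by the interaction, which subtracts the zinc effect of WT yeast from that of AhPDF1.1b yeast. All 6 genes passed, where 33.6% of all genes did (17.7% more positive and 16.0% more negative). For each of the 6 genes the zinc effect was nearer to 0 in AhPDF1.1b yeast. Large zinc effects were also fewer there over all genes. In AhPDF1.1b yeast 79 genes were called down and 135 up by 1 or more, against 191 and 266 in WT yeast. Smaller zinc effects were thus not particular to the 6 genes, but the share of all genes with a zinc effect nearer to 0 was not computed. The difference of zinc effects was 1.59 ± 0.10 for ZPS1 (adjusted p = 1.7e-06), the 9th most positive on the array. It was 0.73 ± 0.09 for ZRT1 (adjusted p = 0.00020), 0.51 ± 0.10 for ZRT2 (adjusted p = 0.0028) and 0.51 ± 0.12 for ZAP1 (adjusted p = 0.0067).

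For the genes that rose, the differences were negative, -0.70 ± 0.10 for FET4 (adjusted p = 0.00059) and -0.52 ± 0.13 for ZRG8 (adjusted p = 0.012). With slide as a block the difference for ZRG8 no longer passed (-0.42, adjusted p = 0.11), and the other 5 genes did, with values of 1.50 for ZPS1, 0.71 for ZRT1, 0.48 for ZRT2, 0.55 for ZAP1 and -0.68 for FET4 and a highest adjusted p of 0.030.

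The smaller zinc effects were not made up alike. For ZPS1 and ZRT1 the levels of the yeasts already differed on control medium, by 1.23 and 0.73, while under zinc they differed by 0.35 and by less than 0.01. For ZRT2, FET4 and ZRG8 the control levels differed by no more than 0.08 and the levels under zinc by 0.42, 0.72 and 0.48. For ZAP1 the differences were 0.34 on control medium and 0.17 under zinc, in opposite directions.

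**Figure D2:**
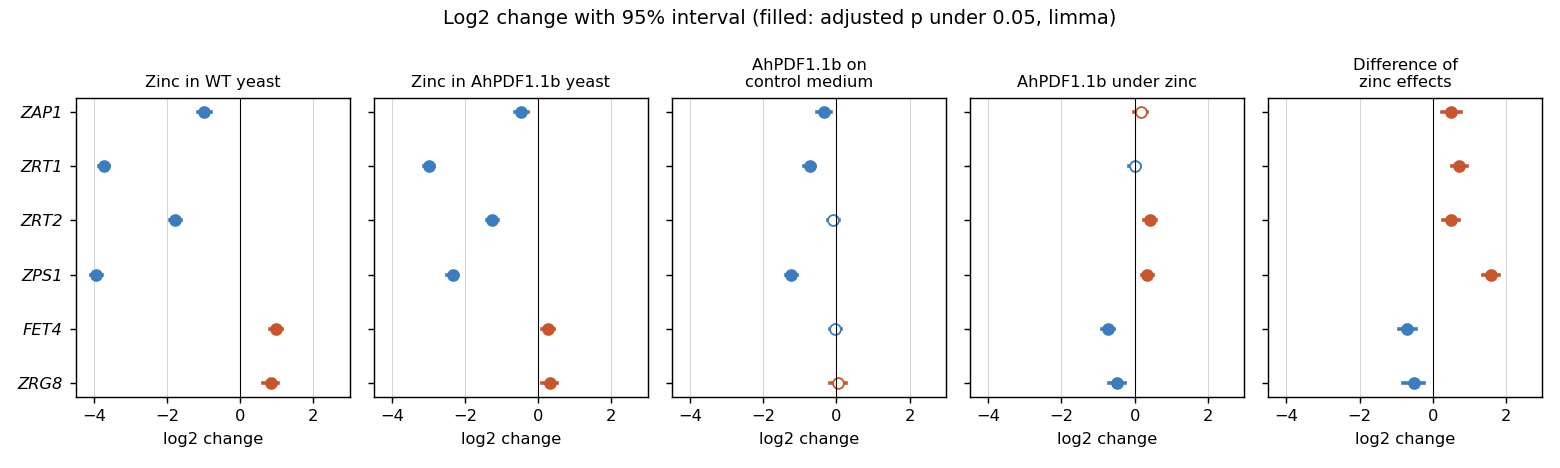
Log2 change (horizontal axis) of the 6 genes with its 95% interval in 5 comparisons, with filled points for an adjusted p below 0.05 in limma, blue for negative and red for positive changes. On control medium AhPDF1.1b yeast were lower in ZPS1, ZRT1 and ZAP1, under zinc the differences lay in ZRT2, ZPS1, FET4 and ZRG8, and all 6 differences of zinc effects passed, though with slide as a block ZAP1 on control medium, ZPS1 and ZRG8 under zinc and the difference for ZRG8 no longer passed.

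AhPDF1.1b yeast under zinc were also set against WT yeast without zinc, a comparison of both factors together that shares its arrays with those above. Of the 6 genes 4 were lower and 2 higher, where 51.6% of all genes passed (27.1% down and 24.6% up). ZRT1 was lower by a factor of 13.1, the same as with zinc alone, and ZPS1 by a factor of 11.9. ZRT2 was lower by a factor of 2.54, and ZAP1 was lower by 0.80 on the log2 scale (-0.80, adjusted p = 1.7e-05). FET4 was higher by 0.24 (adjusted p = 0.017), a call lost without WT0 replicate 1, WT0 replicate 2 or WTD20 replicate 1 (adjusted p = 0.10, 0.051 and 0.13). ZRG8 was higher by 0.36 (adjusted p = 0.0083), a call lost without WT0 replicate 1 or WTD20 replicate 1 (adjusted p = 0.068 and 0.078).

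**Figure D3:**
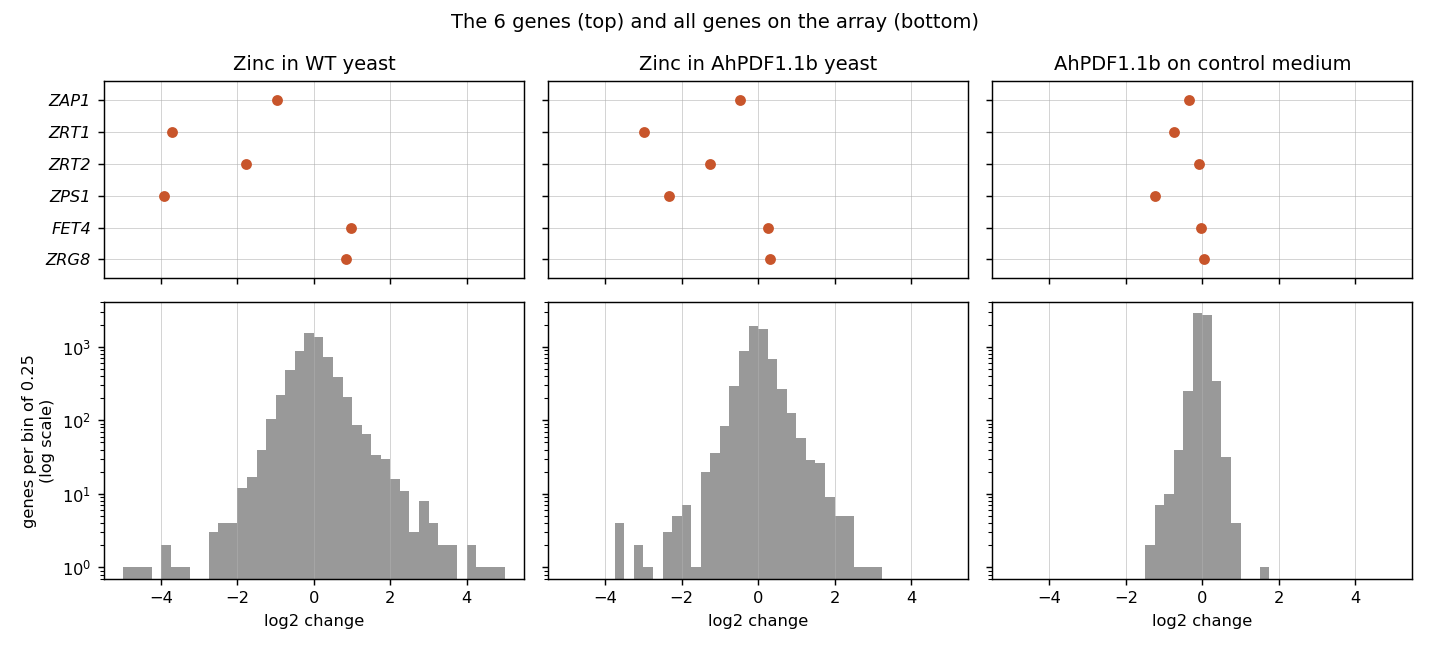
Log2 change (horizontal axis) of the 6 genes (top) and of all 6226 genes (bottom, number of genes per bin of 0.25 on a log axis) with zinc in WT yeast, with zinc in AhPDF1.1b yeast and with AhPDF1.1b on control medium. ZRT1 and ZPS1 lie in the sparse left tail of both zinc distributions, and ZPS1 also in that of AhPDF1.1b on control medium.

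A wider list of genes activated by Zap1 had no common direction, though genes of the COS family made up most of its rises with zinc. Of 26 listed genes, 20 were measured under their names, and the array annotation used here did not name IZH1, IZH2, IZH4, VEL1 and YOR387C among others. With zinc in WT yeast 7 of the 20 rose, 8 fell and 5 did not pass, where 27.8% of all genes rose and 31.5% fell, and their median change was 0.01. DPP1, which encodes the vacuolar membrane diacylglycerol pyrophosphate phosphatase, fell most among the genes of this list (-1.14, adjusted p = 3.1e-07). Smaller falls were found for the GPI anchor synthesis gene MCD4 (-0.49), the mannosyltransferase gene MNT2 (-0.48), the peroxiredoxin gene TSA1 (-0.50) and the choline kinase gene CKI1 (-0.59). URA10, an orotate phosphoribosyltransferase gene, rose (0.93, adjusted p = 6.8e-06). The other rises were ADH4 (0.18) and COS1, COS2, COS3, COS4 and COS8 (0.32, 0.28, 0.30, 0.28 and 0.43). The COS genes are a subtelomeric family whose near-identical copies an array may not tell apart.

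In AhPDF1.1b yeast 7 of the 20 rose with zinc, 8 fell and 5 did not pass, where 21.8% of all genes rose and 24.0% fell, with a median of -0.10. Without WTD20 replicate 1 the falls that passed dropped from 8 to 4. The rises were those of the repressor gene NRG2 (1.02, adjusted p = 2.5e-06) and of COS genes. These were COS1, COS2, COS3, COS4, COS6 and COS8 (0.55, 0.62, 0.68, 0.46, 0.48 and 0.46). ADH4, an alcohol dehydrogenase gene, fell (-0.46, adjusted p = 0.00041). The counts equal those of WT yeast, but the genes were partly others. URA10, which rose in WT yeast, fell here (-0.32, adjusted p = 0.013). Of the falls named for WT yeast, DPP1 (-0.33) and TSA1 (-0.45) passed here too, and MCD4 (0.12), MNT2 (-0.03) and CKI1 (0.19) did not. Of the zinc transporters of the list, ZRT3, which exports zinc from the vacuole, fell by 0.32 in both yeasts (adjusted p = 0.030 in WT and 0.040 in AhPDF1.1b yeast). The call in WT yeast was lost without WT0 replicate 1, WT0 replicate 2, WT20 replicate 1 or WT20 replicate 2 (adjusted p = 0.059, 0.12, 0.14 and 0.055), and in AhPDF1.1b yeast the change was -0.11 without WTD0 replicate 1 (adjusted p = 0.30). ZRC1, which loads zinc into the vacuole, changed by 0.02 in WT yeast (adjusted p = 0.89) and fell by 0.38 in AhPDF1.1b yeast (adjusted p = 0.0060).

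On control medium AhPDF1.1b moved only MCD4 (0.33, adjusted p = 0.013) and NRG2 (-0.33, adjusted p = 0.030) among these 20 genes at the threshold, where 3.00% of all genes rose and 2.65% fell, and neither passed without WT0 replicate 1, WT0 replicate 2 or WTD0 replicate 1. Under zinc 9 were higher in AhPDF1.1b yeast, 4 were lower and 7 did not pass, with a median of 0.12, where 26.8% of all genes were higher and 22.0% lower. MCD4 (0.94), NRG2 (0.75) and DPP1 (0.66) were higher and URA10 (-1.14), ADH4 (-0.79) and the phosphatidylinositol synthase gene PIS1 (-0.73) were lower. In the interaction 8 were more positive, 4 were more negative and 8 did not pass, where 17.7% and 16.0% of all genes were, with a median of 0.15 against 0.03 over all genes. Without WT0 replicate 2 the 8 more positive genes became 5. The smallest p were those of NRG2 (1.08, adjusted p = 4.2e-05), URA10 (-1.25, adjusted p = 4.4e-05), DPP1 (0.81, adjusted p = 0.00020), MCD4 (0.61), ADH4 (-0.65) and CKI1 (0.78), with differences in both directions.

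Since FET4 also answers to Aft1 and Rox1, their targets were set beside it. Of 13 measured genes of the Aft1 iron list, 11 rose with zinc in WT yeast, 1 fell and 1 did not pass, with a median of 1.76, where 27.8% of all genes rose and 31.5% fell. The cell wall mannoprotein genes FIT3 (2.78) and FIT2 (2.19), the siderophore transporter gene ENB1 (1.79) and TIS11 (1.81), which promotes decay of iron-related transcripts, had the smallest p. FIT1, also a cell wall mannoprotein gene, was the gene that fell (-0.32), and it was lower with zinc in AhPDF1.1b yeast too (-0.51). In AhPDF1.1b yeast 11 rose and 2 fell, with a median of 1.09, where 21.8% of all genes rose and 24.0% fell. The falls were 1 and not 2 under most alternatives, with slide or replicate as a block and without any of the 8 arrays but WTD0 replicate 1 among them. In the interaction 1 gene, the heme oxygenase gene HMX1 (0.51), was more positive and 7 were more negative, such as ARN1 (-0.71), ARN2 (-0.65) and FIT3 (-0.54), and 5 did not pass, where 17.7% of all genes were more positive and 16.0% more negative.

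On control medium 6 of the 13 iron genes were higher in AhPDF1.1b yeast, none was lower and 7 did not pass, where 3.00% of all genes were higher and 2.65% lower, while FET4 differed by -0.03. Without WT0 replicate 1 or WT0 replicate 2 the count was 1, and the calls over all genes fell from 352 to 94 and 98. The changes themselves moved little, from 0.45 to 0.43 and 0.47 for FIT2 and from 0.33 to 0.32 and 0.35 for ENB1. Under zinc 4 of the 13 were higher in AhPDF1.1b yeast, 3 were lower and 6 did not pass, with a median of -0.0038. Over all genes 26.8% were higher and 22.0% lower, and FET4 differed by -0.72. HMX1 (0.77) and TIS11 (0.48) were higher, and CCC2 (-0.41) and ARN1 (-0.32) were lower. With slide as a block 2 of the 13 were higher and 1 was lower. The 6 measured Rox1-repressed genes had no common direction with zinc in WT yeast, where 3 rose, 2 fell and 1 did not pass beside 27.8% up and 31.5% down over all genes. The falls were 1 without WT0 replicate 1, without WT20 replicate 2 or without the dimmest 25% of genes. COX5B (0.56) and CYC7 (0.70), genes of the respiratory chain, rose and the heme synthesis gene HEM13 fell (-0.57). ROX1, which encodes the repressor itself and is in this list, also rose (0.31, adjusted p = 0.0023). With AhPDF1.1b on control medium ROX1 alone of the 6 passed (0.41, adjusted p = 0.0067, and 0.43 and 0.39 without WT0 replicate 1 and 2). Under zinc 3 were higher, ROX1 among them (0.54, adjusted p = 0.00010), and 3 were lower, or 1 with slide as a block. Over all genes 26.8% were higher and 22.0% lower there. The part of the iron or hypoxic regulators in the change of FET4 was not tested.

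**Figure D4:**
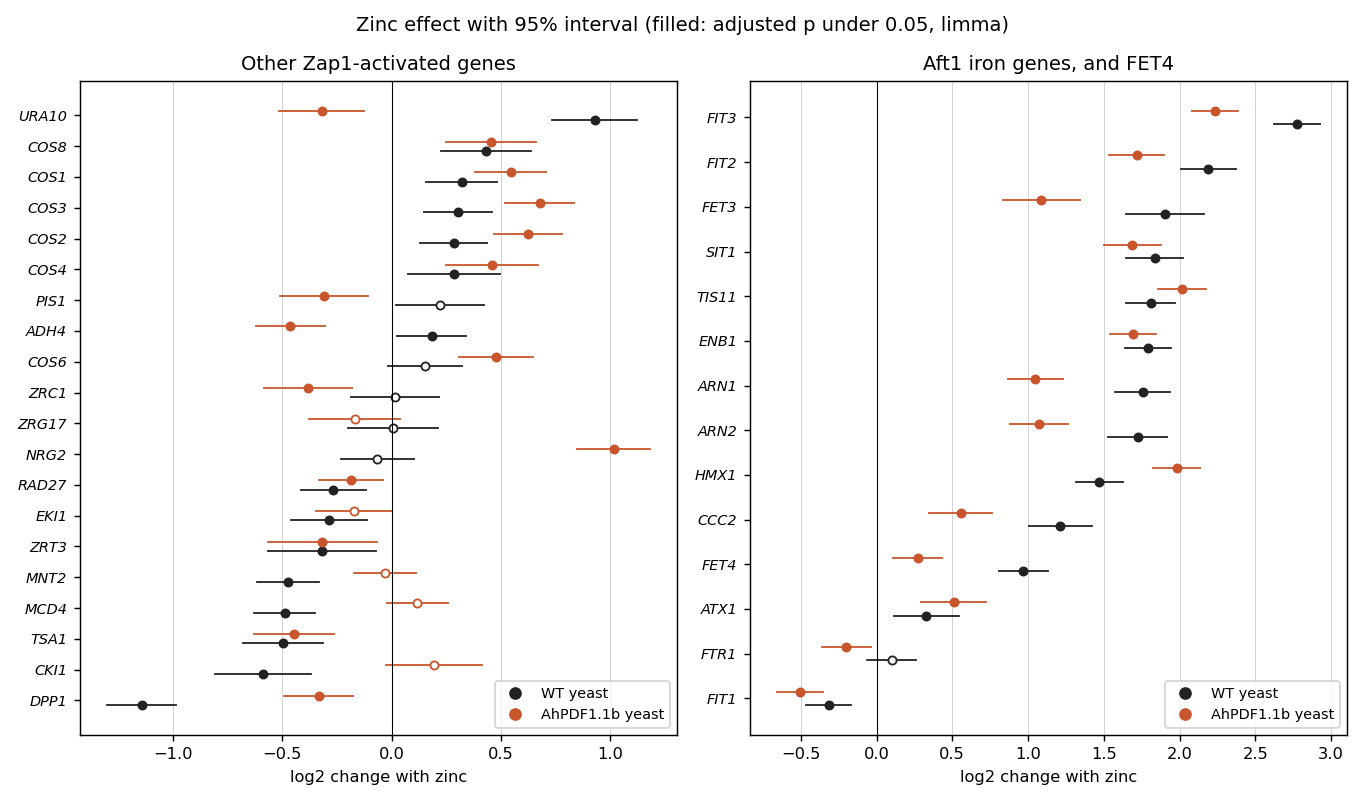
Log2 change with zinc (horizontal axis) and its 95% interval for 20 other Zap1-activated genes (left) and for 13 Aft1 iron genes with FET4 (right), in WT yeast (black) and AhPDF1.1b yeast (red), with filled points for an adjusted p below 0.05. The Zap1-activated genes lie on both sides of 0, with medians of 0.01 and -0.10, while most Aft1 iron genes lie above 0, with medians of 1.76 and 1.09.

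Over the 8 arrays the 6 genes formed a pair of blocks. ZAP1, ZRT1, ZRT2 and ZPS1 correlated with each other at r of 0.95 to 0.99, FET4 with ZRG8 at 0.98, and genes of different blocks at -0.91 to -0.75. These are descriptions over 4 groups of 2 arrays, so the points share their treatment and slide, and of 1863 genes with group means that span at least 0.5, between 230 and 458 had an r above 0.9 with a given member. The named genes outside the 6 with the highest r were SPT6, DBP9 and MF(ALPHA)1 for ZAP1 and NTA1, RPC31 and BIO5 for ZRT1. They were GDH1, RNR1 and THI5 for ZRT2, MF(ALPHA)1, RVB2 and PRT1 for ZPS1, SPT21, PDC5 and DAT1 for FET4, and SOR1, SLX4 and PBS2 for ZRG8, with r of 0.99 or above.

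MF(ALPHA)1, an alpha factor gene that is a marker of MATα cells and not of the MATa strain used, was among the closest genes to both ZPS1 (r = 0.997) and ZAP1 (r = 0.990). Its log2 signal was 8.36 to 8.41 in WT0, 7.61 to 7.66 in WTD0, 5.84 to 6.00 in WT20 and 6.28 to 6.32 in WTD20. The other MATα marker listed, the receptor gene STE3, had another order, at 6.76 to 6.95 in WT0, 6.78 to 6.80 in WTD0, 6.65 to 6.67 in WT20 and 7.19 in both WTD20 arrays. Of the MATa markers, the receptor gene STE2 read 8.81 to 8.92 in WT0, 10.49 to 10.57 in WTD0, 7.60 to 7.94 in WT20 and 8.74 to 8.79 in WTD20. It was highest in WTD0, where ZPS1 and ZAP1 were below WT0. The a-factor gene MFA1 read 11.10 in both WT0 arrays, 10.76 to 11.07 in WTD0, 8.52 to 8.64 in WT20 and 8.39 to 8.44 in WTD20. MFA1 fell with zinc in both yeasts (-2.52 in WT yeast, adjusted p = 9.1e-09, and -2.50 in AhPDF1.1b yeast, adjusted p = 2.6e-08). All groups were of the same MATa strain, and what links the levels of these mating genes to those of ZPS1 and ZAP1 was not tested.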

How the data were processed

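The deposited values were log2 signals, 1 per probe and array, with no pooling of replicates. The submitters' notes name R 2.14.2 and limma for the authors' processing. How background was corrected, arrays were normalized or probes were filtered is not given in the sources. The array medians lay between 8.45 and 8.46, and no further scaling was applied. Of 6227 probes, 4061 had 1 symbol, 0 had several and 2166 were unnamed here. For 125 probes an older symbol was updated through the RefSeq R64 gene table, used for names only. The 2 probes of FDH2 were averaged, which left 6226 genes. Each of the 6 genes has 1 probe.

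The fit used limma 3.58.1 in R 4.3.3 (lmFit, then eBayes) over all 8 arrays with 4 group means. The groups thus share an estimate of the spread, on 4 residual degrees of freedom and a prior of 6.36. There were 6 comparisons, each adjusted by Benjamini-Hochberg over all genes, with a threshold of 0.05 and no minimum change. WT20 was also compared with WTD0 in the same way, only for the order of the ZRT1 levels. The number of arrays, 2 per group, limits the precision. The steps were tested on simulated data.

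The genes and lists were chosen with earlier results of these data known. All 6 genes are named whatever their values, as are the 3 named genes with the highest r to each. From a list, up to 4 genes per comparison with the smallest p among those called are named, and up to 6 from the Zap1-activated list. ZRT3 and ZRC1 were named beyond that rule for their role in vacuolar zinc transport, after their values had been seen. ADH4 and the COS genes that rose with zinc, and FIT1, were later named beyond it as well, to show what made up the counts. So were URA10, DPP1, TSA1, MCD4, MNT2 and CKI1 for zinc in AhPDF1.1b yeast. The alternatives changed the scaling (quantile normalization, median centring), the genes (without the dimmest 25%) or the probe of a gene (that with the highest mean). Others changed the model (a block for slide, a block for replicate, a robust fit with an intensity trend, weights per array) or the arrays and the threshold. The latter were only the arrays compared, a minimum log2 change of 1, values within a slide, and leaving out each array in turn. For the other lists they were chosen once the data were known. Sequences, promoter motifs and coordinates were not used here.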

Additional observations from a re-analysis of the deposited data

Results flagged for a closer look

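For each of the 6 genes the effect of zinc was not the same in both yeasts by the interaction test in limma, adjusted over all genes. The difference was 0.51 for ZAP1 (adjusted p = 0.0067), 0.73 for ZRT1 (adjusted p = 0.00020), 0.51 for ZRT2 (adjusted p = 0.0028) and 1.59 for ZPS1 (adjusted p = 1.7e-06). It was -0.70 for FET4 (adjusted p = 0.00059) and -0.52 for ZRG8 (adjusted p = 0.012). Of all genes 33.6% passed this test, so passing it is not particular to the 6 genes. With slide as a block ZRG8 no longer passed (-0.42, adjusted p = 0.11). The WT20 arrays lay on slide 2 and the WTD20 arrays on slide 1. Values that compare arrays of the same slide only, the zinc effect on slide 1 in AhPDF1.1b yeast minus that on slide 2 in WT yeast, were 0.55, 0.71, 0.48, 1.50, -0.68 and -0.42 in the same order of genes. These are the same values that the fit with slide as a block gives, so they are no separate check. Their only controls are the WTD0 array of slide 1 and the WT0 array of slide 2.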

How the results depend on the processing

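Of 666 alternative values for the 36 results of the 6 genes, 620 were kept, 37 no longer passed, 5 turned their sign and 4 moved beyond the spread between replicates. None of the 5 was called. A kept value had the same direction and side of the threshold. Values within a slide have no p-value and were kept, 16 on slide 1 and 10 on slide 2, if they lay within the spread between replicates. Part of the 37 came from the minimum log2 change of 1, which by rule removes the call of any smaller change. Part of the 620 could not have moved. Each of the 6 genes has 1 probe, so taking the probe with the highest mean left their changes as they were. Leaving out an array of a group not compared also leaves the change itself the same. ZRG8 with AhPDF1.1b on control medium became -0.021 without WT0 replicate 1, the lowest of -0.021 to 0.11 over the arrays left out. ZRT1 with AhPDF1.1b under zinc became 0.000929 after quantile normalization, 0.0031 after centring on the median, and 0.013 and 0.031 without WT20 replicate 2 and WTD20 replicate 2, in a range of -0.032 to 0.031. Outside the 6 genes, ZRC1 with zinc in WT yeast, also not called, became -0.035 with slide as a block and ranged from -0.022 (without WT0 replicate 2) to 0.057 over the arrays left out. A minimum log2 change of 1 reduced the genes that rose with zinc to 0 in both yeasts and in the comparison of WTD20 with WT0, those lower with AhPDF1.1b on control medium to 1, those higher and those lower under zinc to 0 each, and the interaction to 1 more positive and 0 more negative gene. With slide as a block AhPDF1.1b under zinc kept 1 higher and 1 lower gene, and the interaction 1 more negative gene. Leaving out each array in turn gave 0 to 2 genes that rose with zinc in AhPDF1.1b yeast and 0 to 2 higher genes in WTD20 against WT0. Same-numbered replicates did not deviate together in every pair of groups (r from -0.53 to 0.54). With 2 arrays per group and replicate numbers spread over both slides, this check cannot show whether same-numbered replicates were handled together. With replicate as a block 3593 and 2739 genes passed with zinc in WT and AhPDF1.1b yeast, 279 and 2916 with AhPDF1.1b on control medium and under zinc, and 1933 in the interaction, and of the 6 genes only ZAP1 with AhPDF1.1b on control medium was lost (-0.34, adjusted p = 0.054). That comparison held 352 called genes, and 94, 98, 206 and 220 without WT0 replicate 1, WT0 replicate 2, WTD0 replicate 1 and WTD0 replicate 2. Under slide as a block 1755 genes passed with AhPDF1.1b under zinc against 3037, and 1258 in the interaction against 2095. ZAP1 has no value without the dimmest 25% of genes, and the interaction none with only the arrays compared.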

Other observations

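Zap1 also lowers the transcripts of the alcohol dehydrogenase genes ADH1 and ADH3 when zinc is scarce. With zinc in WT yeast ADH1 changed by -0.06 (adjusted p = 0.57) and ADH3 by 0.06 (adjusted p = 0.64). In AhPDF1.1b yeast ADH1 fell by 0.26 (adjusted p = 0.021), a call that was lost under 5 alternatives beside a minimum change, quantile normalization among them (adjusted p = 0.15), and ADH3 changed by -0.17 (adjusted p = 0.21).

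Among zinc transport genes not activated by Zap1, COT1, which loads cobalt and zinc into the vacuole, rose with zinc by 0.83 in WT yeast (adjusted p = 5.0e-05) and by 0.72 in AhPDF1.1b yeast (adjusted p = 0.00028). MSC2, a zinc transporter gene of the endoplasmic reticulum, changed by 0.03 and 0.14 and did not pass in either yeast. PHO84 encodes the high-affinity phosphate transporter, which also takes up zinc. It rose with zinc by 0.70 in WT yeast (adjusted p = 0.00013) and by 2.29 in AhPDF1.1b yeast (adjusted p = 6.1e-08). On control medium PHO84 was lower in AhPDF1.1b yeast by 1.16 on the log2 scale (-1.16, adjusted p = 0.00021), and the interaction was 1.58 (adjusted p = 2.2e-05).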
